A study of Dorcoceras hygrometricum with 14 samples.

Results

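Boea hygrometrica (listed as Dorcoceras hygrometricum) is a desiccation-tolerant plant of the Gesneriaceae whose cut leaves form callus and shoots in culture. The data on an LBD25-like gene (F511_25101) and an LBD16-like gene (F511_01495) are described here. They are 2 of the 24110 genes in the deposited expression table and 2 of its 36 genes described as LOB domain proteins. Both were picked by locus tag because they were known to be higher in explants on induction medium than at day 0, so their differences from day 0 are given as a description, with no test. The other 34 LOB domain genes serve as background.

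RNA was sequenced from leaf explants after 0, 5, 10 or 15 days on half-strength MS medium that held the auxin 2,4-D and the cytokinin 6-BA, at 0.1 mg/L each. There were 3 biological replicate libraries per day, 12 in all. Every explant came from the young leaves of sterile plants aged 1 month, cut into pieces with sides of 0.5 cm, and each replicate pooled about 30 leaf discs. No transgene or mutant was used, and no explants without the hormones or uncut leaves of the later days are among these samples. Explants of all days were cut, while days 5, 10 and 15 differ from day 0 in culture time, time since cutting and hormones together. Bisulfite libraries of untreated young leaves (1 month) and untreated mature leaves (6 months), 1 each from 5 mixed replicates, make up the rest of the 14 samples.

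LOB domain proteins are transcription factors found only in plants, named after LATERAL ORGAN BOUNDARIES of Arabidopsis, which is expressed at the base of lateral organs. In Arabidopsis, the auxin response factors ARF7 and ARF19 switch on LBD16, LBD18 and LBD29 when lateral roots begin, and the same genes act in callus formation on auxin-rich medium. WOX11, a homeobox factor induced at leaf wounds by auxin, acts upstream of LBD16 there. LBD16 also forms a complex with the bZIP factor bZIP59 during callus formation. LBD25 has been linked to auxin and light responses in Arabidopsis and is less studied.

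The LBD25-like gene lies at KV016701.1:126724-127272, a span of 549 bp on a scaffold with 13 genes. The build and the strand are not given in the sources used here. The homology description calls it LOB domain-containing protein 25-like, whereas the product field of the same row reads LATERAL ORGAN BOUNDARIES-like, so the name rests on similarity and differs between the 2 annotations. Its row combines 1 annotated transcript with 3 assembled ones, and its nearest annotated neighbours are 11237 bp and 10441 bp away. The LBD16-like gene lies at KV006337.1:731467-735302 on a scaffold with 110 genes and combines 1 annotated with 1 assembled transcript. On one side a TOM1-like gene (F511_01494) is 1457 bp away. On the other side, 3501 bp away, is a gene described as LBD29 (F511_01496, KV006337.1:738804-739929).

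Expression is given in FPKM, a rate of sequenced fragments corrected for gene length and library size, so that levels of different genes can be set side by side. The LBD25-like gene had 3.98, 3.79 and 5.76 FPKM in replicates 1, 2 and 3 of day 0. It had 45.3, 64.34 and 53.37 FPKM at day 5, 28.45, 41.6 and 58.97 FPKM at day 10, and 49.04, 51.62 and 74.25 FPKM at day 15. Every library of the 3 later days lay above every library of day 0, and the 3 later days overlapped one another.

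The mean of the LBD25-like gene was 54.3 ± 9.56 FPKM at day 5, against 4.51 ± 1.09 FPKM at day 0 (SD, n = 3 here and for all means). The ratio of these means was 12. The corresponding means were 43.0 ± 15.3 FPKM at day 10 and 58.3 ± 13.9 FPKM at day 15, 9.54 and 12.9 times the day 0 mean. On the log2(FPKM + 1) scale the differences from day 0 were 3.33, 2.96 and 3.42 at days 5, 10 and 15. The lowest day 10 library, replicate 1 with 28.45 FPKM, was still 4.94 times the highest day 0 library.

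The LBD16-like gene was less abundant in all 12 libraries. It had 1.21, 0.69 and 1.07 FPKM at day 0, 7.81, 5.31 and 10.74 FPKM at day 5, 5.24, 7.69 and 9.89 FPKM at day 10, and 6.54, 9 and 4.18 FPKM at day 15. As for the LBD25-like gene, the 9 later libraries all lay above the 3 of day 0, and the later days overlapped.

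The mean of the LBD16-like gene was 7.95 ± 2.72 FPKM at day 5, against 0.99 ± 0.269 FPKM at day 0, a ratio of 8.03. Day 10 averaged 7.61 ± 2.33 FPKM and day 15 averaged 6.57 ± 2.41 FPKM, which is 7.68 and 6.64 times the day 0 mean. The log2(FPKM + 1) differences were 2.13, 2.09 and 1.89. With a day 0 level near 1 FPKM, the pseudocount of 1 shrinks these differences, and with a pseudocount of 0.1 they were 2.86, 2.81 and 2.58.

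**Figure D1:**
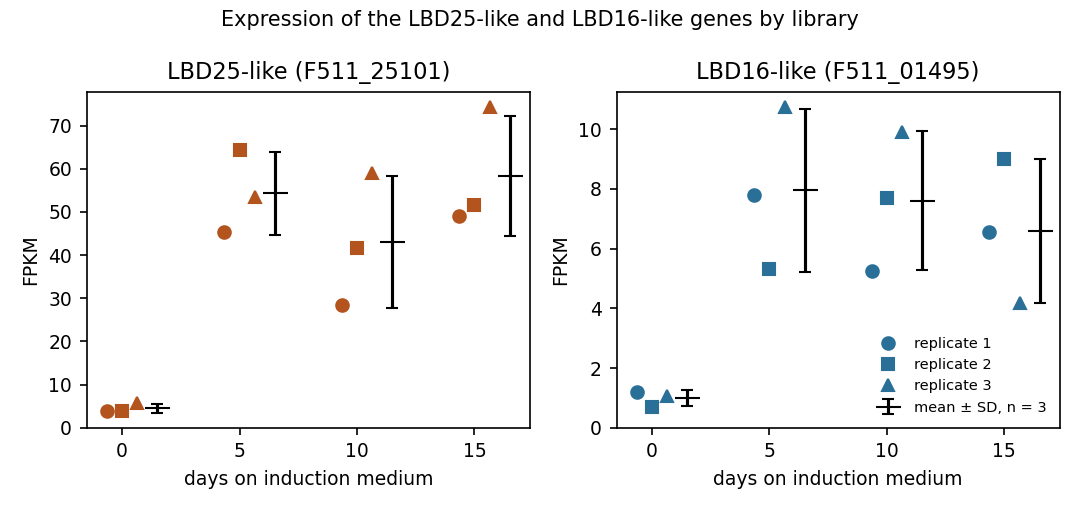
FPKM (linear axis from 0) of the LBD25-like gene (left) and the LBD16-like gene (right) against days on induction medium, with 1 symbol per library and the mean ± SD (n = 3) to the right of each group. The day 0 libraries reach at most 5.76 and 1.21 FPKM, below all 9 later libraries of the same gene.

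Among the 17288 genes tested (at least 1 FPKM in at least 3 libraries), 12.2% had all 9 later libraries above all 3 of day 0. The share with all libraries above those of day 0 was 22.8% at day 5, 20% at day 10 and 26.2% at day 15. Since both genes were chosen for being higher than day 0, their place among these genes is not a result. In bulk tissue, a change in the number of cells that express a gene and a change of its RNA per cell cannot be told apart.

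Both genes stood above a larger share of the transcriptome at the later days, which follows from how they were chosen and is given as a description. The LBD25-like gene made up 0.587% to 0.695% of the summed FPKM of the 36 LOB domain genes in the day 0 libraries and ranked 9 to 11 among them. In the later libraries it ranked 3 to 6, with shares of 5.29% to 9.15% at day 5, 3.29% to 5.61% at day 10 and 4.6% to 8.1% at day 15. At day 0 it was above 45.4% to 48.8% of all genes in the table, and later above 78.7% to 90.9%. The LBD16-like gene was above 32% to 36.6% of all genes at day 0 and above 44.6% to 56.2% later, and it held at most 1.21% of the family sum. Its ranks in the family, 13 to 17 at day 0 and 10 to 13 later, met at 13, in day 15 replicate 3 and day 0 replicate 1.

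Whether either gene went on changing after day 5 was tested with limma's moderated test across all genes, with Benjamini-Hochberg adjustment. Of the later comparisons, only day 15 against day 10 has a difference of means that uses neither the day 0 nor the day 5 libraries. Its SE, interval and p rest on a spread estimated over the libraries of all days. The genes were chosen as higher on induction medium than at day 0. The day 10 and day 15 libraries may therefore have had a part in the choice as well. The LBD25-like gene averaged 58.3 FPKM at day 15 and 43.0 FPKM at day 10, a log2 difference of 0.47 (SE 0.27, 95% interval -0.13 to 1.06, limma adjusted p = 1). It was higher at day 15 in 3 of 3 pairs of libraries with the same replicate number. With the replicate number as a block the same difference had an SE of 0.19 and a 95% interval of 0.04 to 0.90 (unadjusted p = 0.0365, limma adjusted p = 0.785), so it did not pass the adjustment over all genes. The LBD16-like gene averaged 6.57 FPKM at day 15 and 7.61 FPKM at day 10, a log2 difference of -0.20 (95% interval -0.93 to 0.53, limma adjusted p = 1). With the block the LBD16-like interval was -0.986 to 0.589 (SE 0.348), and the gene was higher at day 15 in 2 of 3 pairs. Neither gene was called, and the background was 0% of all genes called in this comparison (561 genes had an unadjusted p under 0.05).

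The 2 comparisons with day 5 reuse libraries with which the genes were chosen and are given as a description of size. At day 10 against day 5 the log2 difference of the LBD25-like gene was -0.38 (SE 0.27, 95% interval -0.97 to 0.22, limma adjusted p = 1). For the LBD16-like gene it was -0.05 (SE 0.33, 95% interval -0.78 to 0.69, limma adjusted p = 1). With the replicate number as a block the 95% intervals were -0.805 to 0.053 (SE 0.189) for the LBD25-like gene and -0.835 to 0.739 (SE 0.348) for the LBD16-like gene. Each gene was lower at day 10 in 2 of 3 pairs of libraries with the same replicate number. Neither gene was called, and 0% of all genes were (539 with an unadjusted p under 0.05). At day 15 against day 5 the differences were 0.09 (95% interval -0.50 to 0.68, limma adjusted p = 0.974) for the LBD25-like gene and -0.25 (95% interval -0.98 to 0.49, limma adjusted p = 0.903) for the LBD16-like gene. Again neither was called, where 0.0463% of all genes were called, all of them higher. That neither gene passed the threshold does not show that its level was equal on the later days.

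The 2 genes were also set against each other within each library, with the pseudocount of 1 added to both. As log2 of (LBD25-like FPKM + 1)/(LBD16-like FPKM + 1) it was 1.17, 1.50 and 1.71 at day 0. It was 2.39, 3.37 and 2.21 at day 5, 2.24, 2.29 and 2.46 at day 10, and 2.73, 2.40 and 3.86 at day 15. The highest later values belong to day 5 replicate 2 and day 15 replicate 3, the 2 libraries in which the LBD25-like gene was highest and the LBD16-like gene lowest for its day.

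The means of this log2 ratio were 2.66 ± 0.62 at day 5, 2.33 ± 0.12 at day 10 and 3.00 ± 0.77 at day 15. An exact permutation test of the between-day sum of squares over these 3 days gave p = 0.357 over 1680 arrangements of the 9 libraries. Day 0, with a mean of 1.46 ± 0.27, was left out of the test because both genes were chosen against it. The day 5 libraries, and possibly those of days 10 and 15, took part in that choice too and are still in the test. The p of the test is therefore given as a description of these 9 libraries and supports nothing further.

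**Figure D2:**
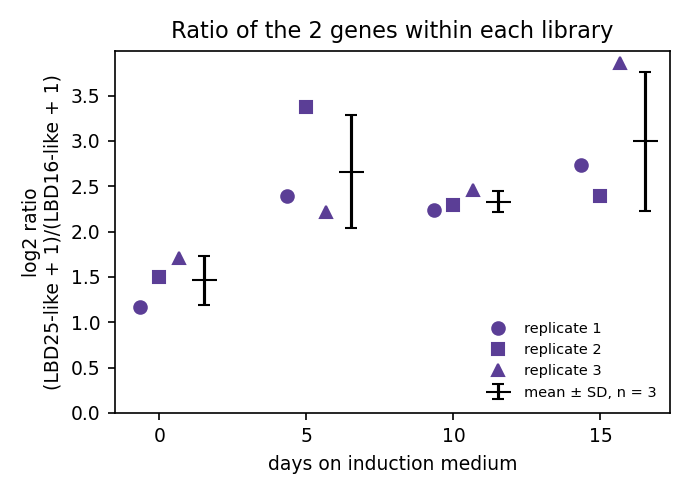
Log2 ratio of (LBD25-like FPKM + 1) to (LBD16-like FPKM + 1) in each of the 12 libraries against days on induction medium, with the mean ± SD (n = 3) beside each group. Days 5, 10 and 15 overlap, with means of 2.66, 2.33 and 3.00, and the day 0 libraries lie lowest, from 1.17 to 1.71.

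Other genes with the same names had low levels. A further LBD16-like gene (F511_08248, KV014884.1:118473-119215) was listed at 0 in all day 0 libraries and reached at most 1.15 FPKM. It too has a gene described as LBD29 beside it (F511_08247), 5257 bp away, so the LBD16-like and LBD29 pairing occurs on 2 scaffolds of this assembly. F511_08247 had at most 1.3 FPKM, and its log2 differences from day 0 of 0.13, 0.63 and 0.77 at days 5, 10 and 15 were not called. F511_01496, the LBD29 gene next to the LBD16-like gene under study, was listed at 0 in 9 of 12 libraries and reached at most 0.89 FPKM. The TOM1-like gene on the other side of the LBD16-like gene was expressed in every library, with 142.56, 126.7 and 137.54 FPKM at day 5 and 71.46, 64.79 and 115.1 FPKM at day 0.

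An LBD18-like gene (F511_31632), named after another Arabidopsis gene of lateral root initiation, reached at most 1.2 FPKM. The 2 other genes described as LBD25-like reached at most 1.28 FPKM (F511_02340, above 0 in a single day 0 library) and 2.04 FPKM (F511_31871). At these levels single fragments can decide a value, and without read counts no lower limit of detection can be given.

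Of the 34 other LOB domain genes, 20 passed the filter on low values, and the 14 that did not had at most 1.51 FPKM. At day 5 against day 0, 1 of the 20 was called higher (limma adjusted p under 0.05 and a log2 change of at least 1 in size) and 0 lower, beside 3.13% and 3.48% of all genes. At day 10, 1 was called higher and 0 lower, beside 2.24% and 2.26%. At day 15, 2 were called higher and 1 lower, beside 4.63% and 4.38%. The 0 called lower at day 5 stand beside 2 with an unadjusted p under 0.05 in that direction, and those at day 10 beside 0. The median log2 differences of the 20 genes were 0.24, 0.07 and 0.34, against 0.14, 0.15 and 0.21 for all genes tested.

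The gene called higher on all 3 days was LBD4 (F511_26445, KQ997030.1:137222-141160), whose Arabidopsis relative acts in vascular tissue. It had 24.35, 34.43 and 27.58 FPKM at day 5, against 7.32, 8.44 and 9.53 FPKM at day 0, a log2 difference of 1.65 (SE 0.38, limma adjusted p = 0.0213). The day 5 call did not hold when replicate 1 or 2 of either day was left out (adjusted p up to 0.0804). At day 10 it had 11.07, 31.46 and 41.57 FPKM (log2 difference 1.45, adjusted p = 0.0443), a call that held in a single one of the 12 fits that left out 1 library, the one without day 10 replicate 1 (adjusted p up to 0.142 in the other 11). At day 15 it had 29.49, 39.44 and 43.62 FPKM (log2 difference 2.02, adjusted p = 0.00835), and this call was kept in all 12 such fits. Of the 20 genes, LBD4 was also the 1 whose 9 later libraries all exceeded day 0, beside 12.2% of all genes.

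At day 15 an LBD37-like gene (F511_31890), of a group linked to nitrogen responses in Arabidopsis, was higher, with 141.28, 184.76 and 74.65 FPKM against 38.87, 54.66 and 34.95 FPKM at day 0. The log2 difference was 1.55 (SE 0.41, limma adjusted p = 0.0277), and the call did not hold when day 0 replicate 1 or 3, or day 15 replicate 1 or 2, was left out (adjusted p up to 0.0967). LBD41 (F511_00141), named after a gene induced by low oxygen in Arabidopsis, was lower, with 42.13, 23.63 and 36.66 FPKM at day 15 against 59.69, 137.09 and 76.52 FPKM at day 0. Its log2 difference of -1.34 (SE 0.41, limma adjusted p = 0.0481) lost its call in 9 of the 12 fits that left out 1 library, all but those without day 5 replicate 1 or 3 or day 10 replicate 1 (adjusted p up to 0.16).

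Averaged over all 12 libraries, day 0 included, the 3 most abundant LOB domain genes were LBD37-like genes. These genes, F511_31655, F511_08169 and F511_31890, averaged 343, 166 and 84 FPKM. At day 5 alone the LBD25-like gene, with 54.3 FPKM, lay above F511_31890, which averaged 40.01 ± 20.1 FPKM, and below only the other 2 of these genes. F511_31655 had 328.79, 343.85 and 418.53 FPKM at day 5, against 254.5, 174.54 and 316.29 FPKM at day 0, and was not called. F511_08169 had 81.74, 82.96 and 206.24 FPKM at day 5, against 160.53, 148.34 and 182.45 FPKM at day 0, and was not called either. The lowest day 5 log2 difference in the family was -1.33 for an LBD40-like gene (F511_18445), with 20.42, 21.54 and 80.25 FPKM at day 5 against 79.99, 51.89 and 143.92 FPKM at day 0, which did not pass the test.

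**Figure D3:**
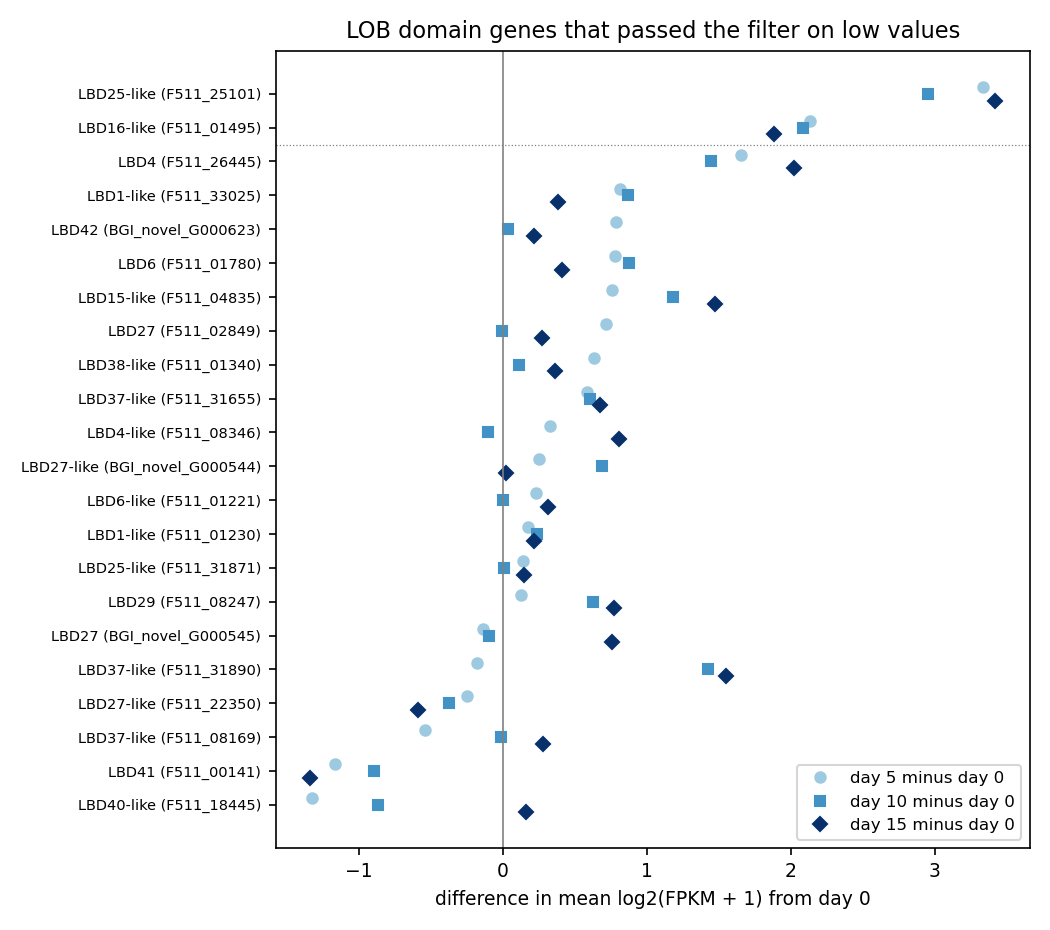
Difference in mean log2(FPKM + 1) from day 0 (3 libraries per day) for the 22 LOB domain genes that passed the filter on low values, with the LBD25-like and LBD16-like genes above the dotted line and 1 symbol per later day. The LBD25-like gene lies between 2.96 and 3.42 and the LBD16-like gene between 1.89 and 2.13, and the others run from -1.33 to 1.65 at day 5. At day 15 LBD4, at 2.02, lies above the LBD16-like gene, at 1.89.

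Genes that surround LBD16 in the Arabidopsis pathway were examined as lists of the text descriptions, counted against the same background. Of all genes tested, 3.13% were called higher and 3.48% lower at day 5. The shares were 2.24% and 2.26% at day 10, and 4.63% and 4.38% at day 15. The LBD16-inducing regulators come first. WOX11-like (F511_17086) had 1.36, 6.55 and 3.53 FPKM at day 0, 29.11, 43.13 and 52.11 FPKM at day 5, 6.89, 33.51 and 53.72 FPKM at day 10, and 13.14, 28.86 and 28.84 FPKM at day 15. All later libraries were above day 0, but day 10 replicate 1 exceeded the highest day 0 library only slightly. The day 5 log2 difference was 3.26 (SE 0.66, limma adjusted p = 0.0134), and its call did not hold when day 0 replicate 1 or day 5 replicate 2 was left out (adjusted p up to 0.0556). It was the 1 of 5 WUSCHEL-related homeobox genes called higher on each later day, with 0 lower by limma (0 also by unadjusted p under 0.05). Its calls at days 10 and 15 failed in 9 and 4 of the 12 fits that left out 1 library.

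Auxin response factors, the class that contains ARF7 and ARF19, had 1 of 22 genes called higher and 1 lower at day 5, then 1 and 0 at days 10 and 15 (1 and 3 lower by unadjusted p under 0.05). The higher one was auxin response factor 5 (F511_30984), MONOPTEROS of Arabidopsis, with 31.82, 31.06 and 32.8 FPKM at day 5 against 4.36, 7.55 and 13.08 FPKM at day 0 (log2 difference 1.93, SE 0.36, limma adjusted p = 0.0108). At day 15 it had 14.23, 22.87 and 35.17 FPKM, still above day 0. Its calls at days 10 and 15 failed when replicate 1 or 2 of day 0, or replicate 2 or 3 of the later day, was left out (adjusted p up to 0.0796 and 0.0856). They also failed on the 6 libraries compared (adjusted p = 0.0845 and 0.0769). The lower one, auxin response factor 18-like (F511_06333), had 7.47, 8.11 and 11.89 FPKM at day 5 against 30.31, 38.75 and 15.68 FPKM at day 0 (-1.46, SE 0.39, adjusted p = 0.0362), and its call failed when replicate 1 or 2 of day 0 or day 5, or day 15 replicate 2, was left out (adjusted p up to 0.127).

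Aux/IAA proteins, which hold auxin response factors in check, went both ways, with 2 of 20 genes called higher and 4 lower at day 5, and 0 higher and 3 lower at days 10 and 15 (2 and 3 higher by unadjusted p under 0.05). IAA26 (F511_21789) had 132.94, 129.2 and 144.76 FPKM at day 5 against 67.99, 60.63 and 72.71 FPKM at day 0 (log2 difference 1.01, SE 0.19, limma adjusted p = 0.0106), a difference that fell under the fold minimum when day 0 replicate 2 or day 5 replicate 3 was left out. The other higher row, F511_02015, is described as 60S ribosomal protein L14-2 and is not an Aux/IAA gene. After a rescaling of the libraries to equal median ratios 0 of the 20 were called higher. Auxin-induced protein 22D-like (F511_09042) had 1.02, 3.58 and 4.46 FPKM at day 5 against 245.56, 167.84 and 45.71 FPKM at day 0 (-5.08, SE 0.78, adjusted p = 0.00509).

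Of 6 GH3 genes, whose products conjugate auxin to amino acids, 0 were called higher, with 0 at an unadjusted p under 0.05 in that direction on any later day. Counted lower were 1 at day 5, 2 at day 10 and 1 at day 15, and the median log2 difference was -0.94 at day 5. GH3.1 (F511_31069) had 0.54, 0.17 and 2.59 FPKM at day 5 against 23.96, 31.05 and 5.7 FPKM at day 0 (-3.23, SE 0.60, limma adjusted p = 0.0103). Of 17 auxin transport genes 0, 0 and 1 were called lower at days 5, 10 and 15 (3, 1 and 1 by unadjusted p under 0.05). Called higher on each later day was 1, auxin transporter-like protein 2 (F511_05500), of the family of auxin importers to which LAX3 of Arabidopsis belongs. It had 107.23, 118.34 and 67.79 FPKM at day 5 against 21.46, 26.85 and 39.09 FPKM at day 0 (1.72, SE 0.25, adjusted p = 0.00416).

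Genes placed downstream of LBD16 and LBD18 in Arabidopsis include cell wall and FAD-binding berberine-type genes. Among 45 pectate lyase and polygalacturonase genes 4 were called higher and 3 lower at day 5. A polygalacturonase-1 non-catalytic subunit beta-like gene (F511_18275), named after a wall protein bound to a pectin-degrading enzyme in tomato, had 2632.62, 2945.83 and 1820.72 FPKM at day 5 against 116.37, 156.42 and 112.07 FPKM at day 0 (log2 difference 4.24, SE 0.37, limma adjusted p = 0.000817). It averaged 1378 ± 833 FPKM at day 10 and 532 ± 131 FPKM at day 15, and its calls were kept in every fit that left out 1 library. Genes of this name went both ways, as F511_18904 and F511_29801 were called lower at day 5. The day 5 call of F511_29801 failed when day 0 replicate 1 or day 5 replicate 1 or 2 was left out (limma adjusted p up to 0.0654). A pectate lyase-like gene (F511_30241), of enzymes that cleave pectin, had 19.14, 38.53 and 41.95 FPKM at day 5 against 0.53, 0.53 and 7.41 FPKM at day 0 (3.59, SE 0.62, adjusted p = 0.00752).

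Of 5 berberine bridge enzyme-like genes, 1 was called higher at days 5 and 10, 2 at day 15, and 0 lower (1, 0 and 1 lower by unadjusted p under 0.05). A reticuline oxidase-like gene (F511_16379) had 43.38, 22.99 and 235.84 FPKM at day 5 against 2.64, 7.26 and 6.8 FPKM at day 0 (log2 difference 3.36, SE 0.89, limma adjusted p = 0.0352). Replicate 3 made up most of the day 5 level, and the call failed when any day 0 library, or day 5 replicate 1 or 3, was left out (adjusted p up to 0.123). Of 15 expansins, which loosen cell walls and of which LBD18 activates some in Arabidopsis, 1 was called higher and 1 lower at day 5. Expansin-A11-like (F511_02059) had 1.9, 5.05 and 2.59 FPKM at day 5 against 0.23, 0 and 0.24 FPKM at day 0 (1.79, SE 0.37, adjusted p = 0.0144), and expansin-A4-like (F511_04894) had 7.07, 26.09 and 85.99 FPKM against 315.24, 149.68 and 164.89 FPKM (-2.90, SE 0.78, adjusted p = 0.036). The first call failed when replicate 2 of either day was left out (adjusted p up to 0.0624), and the second when any day 0 library or day 5 replicate 1 or 2 was left out (adjusted p up to 0.125).

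Wound and regeneration factors of the ERF family, upstream of callus formation in Arabidopsis, split evenly at day 5, with 2 of 5 called higher and 2 lower. ERF113 (F511_10740) had 240.38, 190.76 and 318.2 FPKM at day 5 against 27.74, 64.58 and 53.22 FPKM at day 0 (log2 difference 2.39, SE 0.42, limma adjusted p = 0.00823). ERF109-like (F511_10299), whose Arabidopsis namesake responds quickly to wounding, had 4.46, 0.29 and 1.95 FPKM at day 5 against 326.46, 255.86 and 19.98 FPKM at day 0 (-5.46, SE 1.32, adjusted p = 0.0251). The call of ERF109-like failed when day 0 replicate 1 or 2, or any day 5 library, was left out (adjusted p up to 0.0991).

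The list of SHORT-ROOT and SCARECROW factors was matched by description text and includes scarecrow-like proteins. Of its 34 genes tested, 4 were called higher and 2 lower at day 5. That is 11.8% and 5.88%, beside 3.13% and 3.48% of all genes. The genes named here are all described as scarecrow-like, and none as SHORT-ROOT or SCARECROW itself. Scarecrow-like protein 3 (F511_40956) averaged 65.4 ± 13.4 FPKM at day 5 against 27.5 ± 5.91 FPKM at day 0, and a scarecrow-like protein 21 gene (F511_38326) averaged 15.4 ± 1.40 FPKM against 33.6 ± 7.60 FPKM. The first call failed when day 0 replicate 1 or day 5 replicate 1 or 2 was left out, and the second when day 0 replicate 2 or day 5 replicate 3 was. Genes named scarecrow-like protein 21 went both ways. F511_05455 was called higher at day 5 (25.3 ± 5.59 against 9.46 ± 4.05 FPKM) and F511_21593 lower (16.4 ± 7.92 against 303.5 ± 199 FPKM). Their calls failed in 3 and 4 of the 12 fits that left out 1 library. Of 18 two-component response regulators, which carry the cytokinin signal, 1 was called higher and 1 lower at day 5 and 4 higher at day 15. ARR11-like (F511_01603) averaged 11.7 ± 2.53 FPKM at day 5 against 5.03 ± 1.08 FPKM at day 0, a call that failed when day 0 replicate 2 or day 5 replicate 1 or 2 was left out, and after rescaling. Of 12 shoot meristem and boundary genes, 1 (8.33%) was called higher, CLAVATA2 (F511_33076, 15.4 ± 3.99 FPKM at day 5 against 6.22 ± 1.81 FPKM at day 0), and 1 lower. The CLAVATA2 call failed when replicate 1 or 2 of either day was left out.

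Several lists had no call at day 5. These were 6 PLETHORA and AINTEGUMENTA-like factors, 11 basic leucine zipper factors, 8 E2F and retinoblastoma proteins, 20 D-type cyclins and CDK inhibitors and 12 A- and B-type cyclins and mitotic CDKs. By limma's unadjusted p under 0.05, the counts of these lists at day 5 were 0, 3, 0, 1 and 1 higher and 0, 2, 0, 1 and 2 lower. At day 15, 3 basic leucine zipper genes were called higher and 0 lower (4 and 1 by unadjusted p). The median log2 difference of the A- and B-type cyclins was -0.73 at day 5, against 0.14 for all genes.

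**Figure D4:**
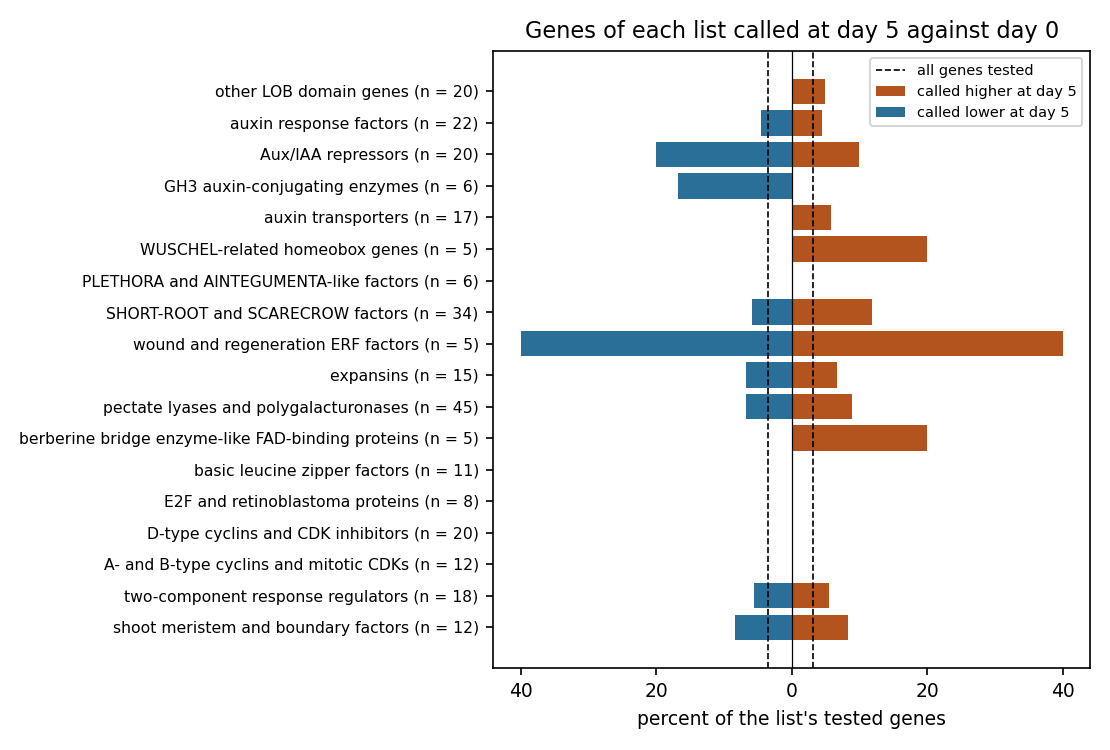
Percent of each list's tested genes called higher (right of 0) or lower (left of 0) at day 5 against day 0 by limma (adjusted p under 0.05 and a log2 change of at least 1 in size), with dashed lines at the 3.13% and 3.48% of all genes tested. Lists with 5 genes move in steps of 20%, so the long bars of the wound factors stand for 2 genes each.

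Markers of green leaf cells were lower in the later libraries, with 1 exception at day 10. The summed FPKM of 21 mesophyll marker genes (chlorophyll a-b binding, Rubisco small subunit and photosystem proteins) was 36315, 37559 and 26175 at day 5, against 86951, 75082 and 106854 at day 0. It was 76339, 30634 and 21850 at day 10 and 42531, 24143 and 14328 at day 15. Of 20 tested, 8 were called lower at day 5, 1 at day 10 and 12 at day 15, with 0 higher and 1 marker at 0 in all day 0 libraries. Day 10 replicate 1, whose mesophyll sum fell within the day 0 range, had the lowest later level of the LBD25-like gene (28.45 FPKM), and day 15 replicate 3, with the lowest sum, had the highest (74.25 FPKM). For the LBD16-like gene, day 15 replicate 3 was instead the lowest later library (4.18 FPKM). The part of these marker levels in the values of the 2 genes was not tested.

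The 12 vascular markers summed to 135.3 to 232.3 FPKM at day 5 and 133.2 to 187.5 FPKM at day 0, with 0 of 8 tested called at day 5 (by unadjusted p under 0.05, 1 higher and 1 lower at day 5). The 20 epidermis and guard cell markers summed to 181.2 to 320 FPKM at day 5 and 284.7 to 448.6 FPKM at day 0. Of 18 tested, 2 (11.1%, beside 3.13% of all genes) were called higher at day 5 and 0 lower. By limma's unadjusted p under 0.05, 4 were higher and 5 lower, and the median log2 difference was -0.33. The 2 calls were EPIDERMAL PATTERNING FACTOR-like protein 4 (F511_00278) and EPIDERMAL PATTERNING FACTOR-like protein 2 (F511_06072). Both were matched by the words of their names, and whether they mark epidermis or guard cells was not tested. Their calls failed in 5 and 3 of the 12 fits that left out 1 library. The 4 genes matched by root words summed to 158.8 to 183.7 FPKM at day 5 and 115.3 to 126.1 FPKM at day 0, with 0 of 3 tested called (1 higher by unadjusted p under 0.05). The part of these lists in the values of the 2 genes was not tested.

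**Figure D5:**
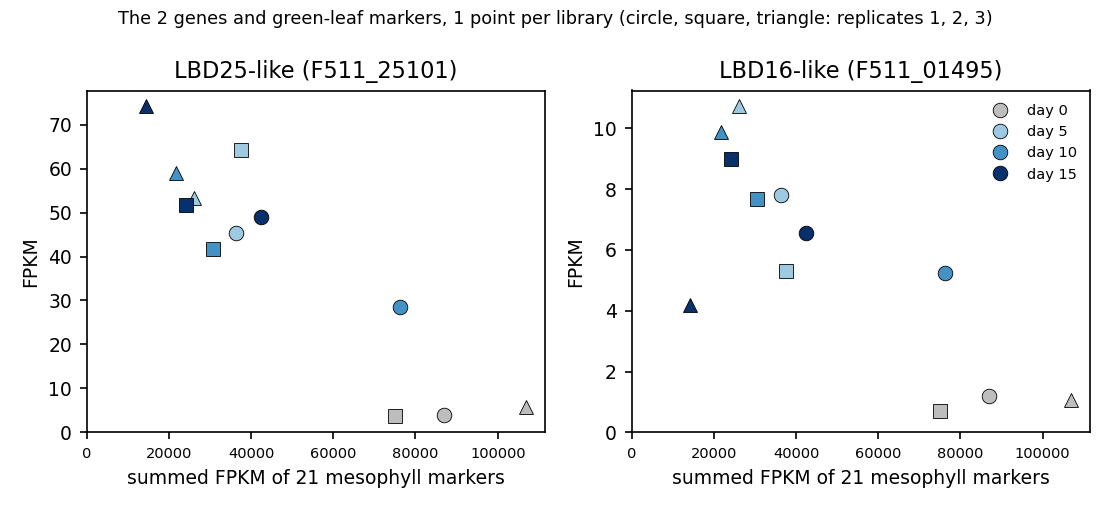
FPKM of the LBD25-like gene (left) and the LBD16-like gene (right) against the summed FPKM of 21 mesophyll markers (linear axes from 0), with 1 point per library, coloured by day and shaped by replicate number. Day 10 replicate 1 lies at 76339 on the x axis, among the day 0 libraries, while its 28.45 and 5.24 FPKM are above them.

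To place the 2 genes among all others, 12804 genes with a named protein and at least 1 FPKM in 3 libraries were ranked by Pearson r on log2(FPKM + 1) over the 12 libraries, as a description. All these genes share the libraries and the step between day 0 and later days, which weighs heavily in r. The genes most like the LBD25-like gene were TBCC domain-containing protein 1-like (F511_03828, r = 0.988), la-related protein 6A (F511_01839, r = 0.986), nucleolar protein 56-like (F511_02904, r = 0.983), probable carboxylesterase 2 (F511_11793, r = 0.983) and V-type proton ATPase subunit B 2 (F511_06476, r = 0.982). Over the 9 later libraries alone their r ran from 0.76 to 0.91. Nucleolar protein 56, a part of the machinery that processes ribosomal RNA, averaged 130 ± 7.53 FPKM at day 5 against 79.7 ± 7.88 FPKM at day 0.

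The genes running most opposite to the LBD25-like gene were CURVATURE THYLAKOID 1B (F511_10460, r = -0.981), a probable monogalactosyldiacylglycerol synthase (F511_26587, r = -0.981) and pheophytinase (F511_08901, r = -0.977). Each acts in the chloroplast, in shaping thylakoids, making their main lipid and breaking down chlorophyll. The monogalactosyldiacylglycerol synthase averaged 27.5 ± 2.41 FPKM at day 5 against 43.5 ± 2.00 FPKM at day 0.

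For the LBD16-like gene the most similar were lysine-tRNA ligase (F511_32894, r = 0.963), histone deacetylase HDT1 (F511_35385, r = 0.958), THO complex subunit 7A (F511_17386, r = 0.954), probable prolyl 4-hydroxylase 10 (F511_00092, r = 0.953) and peroxisome biogenesis protein 16 (F511_03080, r = 0.951). HDT1, a plant-type histone deacetylase of the nucleolus, averaged 254 ± 18.8 FPKM at day 5 against 136 ± 15.6 FPKM at day 0. Most opposite were chloroplast chaperone ClpB3 (F511_01989, r = -0.964), ABC transporter F family member 5 (F511_00003, r = -0.944) and beta-galactosidase 8-like (F511_28174, r = -0.938). None of the 5 most similar genes was shared between the 2 lists.

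The 2 genes correlated with each other at r = 0.906 over the 12 libraries and at r = -0.06 over the 9 later ones. The LBD16-like gene ranked 336 among the genes most like the LBD25-like gene, which ranked 95 in the reverse list. The r over the 9 later libraries was not recomputed with single libraries left out, and no conclusion is drawn from it. At day 10 both genes rose from replicate 1 to replicate 3. In day 5 replicate 2 and day 15 replicate 3 the LBD25-like gene was highest and the LBD16-like gene lowest for its day.

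DNA methylation could not be tied to either gene. The 4 deposited tables of regions that differ between mature and young leaves hold 2247 regions in the CG context, 1548 in CHG, and 1738 and 1610 in CHH on the positive and negative strands. Each table covers 18 scaffolds, and neither the scaffold of the LBD25-like gene nor that of the LBD16-like gene is among them. Of all LOB domain genes with a position, LBD41 (F511_00141, KQ990066.1:969308-970197) was the 1 on a covered scaffold, and its nearest CG region was 8245 bp away. No region was tied to a LOB domain gene in these tables.

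Facts of the libraries bear on all of these values. Within each day, replicates 1 and 2 were more alike (Pearson r of 0.943 to 0.971 on log2(FPKM + 1)) than either was to replicate 3 (0.896 to 0.923). FPKM totals ran from 846672 to 970083 per library, and as read counts were not used here, depth is unknown. The most frequent ratio of low FPKM values to those of day 0 replicate 1, a rough measure of relative depth, ran from 1 to 1.11. In the other libraries only 14.6% to 24.8% of the genes compared lay near that ratio (within 0.03 on the log2 scale). Equal depth is therefore not established. The median gene was itself higher than at day 0 by 0.14, 0.15 and 0.21 on the log2 scale at days 5, 10 and 15. Of all genes called at day 5, 541 were higher and 601 lower as deposited, and 350 were higher and 731 lower after rescaling to equal median ratios. Under that rescaling the LBD25-like differences from day 0 were 3.19, 2.81 and 3.23 and the LBD16-like differences 2.03, 1.98 and 1.75.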

How the data were processed

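Expression was analysed from FPKM values computed by the authors, 1 column per library, per the file headers. The tools listed are BSMAP, HISAT, Bowtie2 2.2.5 and StringTie 1.0.4, per the submitters' processing notes, with no role given for any of them. The genome build is not given in the sources used here, and reads were not used. FPKM keeps no read counts, so no counting error could be given. From the 4 deposited region tables, which hold other kinds of values as well, only the start and end positions by the authors were used, and their 8 level columns were left out. The LOB domain genes and the 22 lists were found by text patterns on the descriptions, and a few rows do not belong to the list that matched them. The members and lists were chosen with earlier results of these data known.

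The 17288 of 24110 genes that reached 1 FPKM in 3 or more libraries were put on the log2 scale after adding a pseudocount of 1. Day means were fitted over the 12 libraries together with limma 3.58.1 (R 4.3.3, eBayes with trend and robust variances, statmod 1.5.0), two-sided, with Benjamini-Hochberg adjustment over all genes tested. Genes were called at an adjusted p under 0.05 and a log2 fold change of at least 1 in size. The p-values measure the spread between pools of leaf discs. The comparisons with day 0 share its 3 libraries. A fold on this scale understates changes of low genes. The fit was tested on simulated data.

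The text names the 2 genes, LOB domain genes called on any day, the 3 most abundant ones, and a part of up to 2 higher and 2 lower genes per list with the smallest adjusted p at day 5, chosen after their values were seen. Other LOB domain and neighbouring genes are named for their name, position or lowest difference. Alternatives were other pseudocounts, filters and scaling, subsets of libraries, each library left out in turn, and the replicate number as a block. Deviations of same-numbered libraries from their day means correlated over 0.1 in all 3 pairs for days 10 and 15 (0.23 to 0.50) and days 5 and 10 (0.18 to 0.66). For those comparisons the 2 genes were also fitted with the numbers as pairs, on the data alone, since the labels name no shared batch. For the other comparisons 2 of 3 pairs passed 0.1, and the numbers were not taken as pairs.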

Additional observations from a re-analysis of the deposited data

How the results depend on the processing

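No alternative brought a member's differences among the later days past the threshold, and their differences from day 0 stayed positive in all of them. Leaving out 1 library gave LBD25-like differences from day 0 of 3.20 to 3.49, 2.70 to 3.22 and 3.24 to 3.58 at days 5, 10 and 15, and LBD16-like ones of 1.92 to 2.36, 1.90 to 2.30 and 1.66 to 2.14. With a pseudocount of 0.1 the LBD16-like differences were 2.86, 2.81 and 2.58.

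Among the later days, the sign of the LBD25-like difference for day 15 against 5, and of all 3 LBD16-like differences, changed with single libraries, and the cause was not tested. The LBD25-like signs for day 10 against 5 and day 15 against 10 were kept in every alternative. Leaving out 1 library, the LBD25-like difference ran from -0.63 to -0.12 for day 10 against 5, from 0.21 to 0.72 for day 15 against 10, and from -0.095 to 0.22 for day 15 against 5 (-0.032 without day 5 replicate 1, -0.095 without day 15 replicate 3). The LBD16-like difference ran from -0.28 to 0.17 for day 10 against 5 (0.17 without day 5 replicate 3, 0.165 without day 10 replicate 1), from -0.42 to 0.05 for day 15 against 10 and from -0.48 to 0.002 for day 15 against 5 (0.05 and 0.002 without day 15 replicate 3). On replicates 1 and 2 alone, day 15 against 5 was -0.10 for the LBD25-like and 0.22 for the LBD16-like gene, and day 15 against 10 was 0.24 for the LBD16-like gene. The permutation p of the log2 ratio was 0.186 to 0.721 with 1 library left out and 0.0215 with day 0 added, a value that uses the libraries the genes were chosen against and supports nothing.

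Of the other LOB domain genes, 0 to 1 were called higher and 0 to 2 lower at day 5, 0 to 1 higher and 0 to 0 lower at day 10, and 1 to 3 higher and 0 to 1 lower at day 15 with 1 library left out. Replicates 1 and 2 alone gave 1 lower at day 5. At day 10, 0 were higher without the filter, after rescaling and on the 6 libraries compared, and 2 with a minimum of 5 FPKM. At day 15, 1 was higher after rescaling, and 0 were lower without the filter, on the 6 libraries compared, on replicates 1 and 2 alone and with the replicate block.

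Same-numbered libraries deviated together with r of -0.01 to 0.21 between day 0 and the later days and 0.06 to 0.45 between days 5 and 15, where the numbers were not taken as pairs. The replicate block changed no call of either member (LBD25-like difference at day 5 of 3.33, permutation p of the ratio 0.472).

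Over all genes, 1142, 777 and 1559 were called at days 5, 10 and 15 against day 0, and 417 to 1414, 205 to 1177 and 753 to 1894 with 1 library left out. On the 6 libraries compared 88 were called at day 10. On replicates 1 and 2 alone 2033 were called at day 5 and 1492 at day 10. For day 15 against 5, 8 were called, 0 to 22 with 1 library left out, 119 on replicates 1 and 2 alone, 3 with a pseudocount of 0.1 or 0.5, 4 with either other filter and 5 on the 6 libraries compared. For day 15 against 10, 22 were called on replicates 1 and 2 alone and 1 without the filter, and for day 10 against 5, 1 on replicates 1 and 2 alone. Of 2520 list counts recomputed, an addition made after seeing the data, 432 moved by more than 1.5 times. The unknown depth limits all genes under about 1 FPKM.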
